A study of Homo sapiens with 18 samples.

Results

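The genes described here carry the names of proteins of the cytosolic ribosome and of their close relatives. They were chosen by name alone, as symbols made of RPL or RPS and a number, with the endings of close relatives allowed, together with RPLP0, RPLP1, RPLP2 and RPSA. This gave 83 of the 15747 genes in the fraction table, 32 named for the small 40S subunit and 51 named for the large 60S subunit. All 83 were also among the 44682 genes of the whole-cell table, which adds RPL3L and RPL10L. Of the 83 genes, 6 are paralogs of another member (RPL7L1, RPL22L1, RPL26L1, RPL36AL, RPL39L and RPS27L). The name rule leaves out, among others, FAU, whose product is a ubiquitin-like fusion of a ribosomal protein, and RACK1, a scaffold on the 40S head. Both are given separately.

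The cells were DU145, a human line from a metastatic prostate carcinoma. GC7, at 40 µM for 24 h, inhibits deoxyhypusine synthase, the enzyme that begins the conversion of a lysine of eIF5A to hypusine. Control cells received vehicle only. RNA was sequenced in 18 libraries, 3 for each treatment from whole cells, from cytoplasm and from the heavy polysomes of the same kind of lysate. Per the labels' protocols, emetine at 25 µg/ml was given for 10 min before lysis to hold ribosomes on mRNAs, nuclei and mitochondria were spun out, and gradients ran from 15 to 50% sucrose. The replicate numbers of the labels do not say whether the samples came from separate cultures, so p-values measure the spread between these samples. All 4 epithelial markers were listed in cytoplasm, at 11.5 to 1401 CPM (share of the summed mean normalized counts) and 2533 CPM in sum. Leukocyte markers were listed for 1 of 3 genes (CD14, 1.69 CPM), fibroblast markers for 2 of 3 (0.892 and 2.14 CPM) and endothelial markers for 0 of 2.

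Every cell builds ribosomes from these proteins in near-equal numbers, and their mRNAs are among the most abundant of growing cells. Most of them begin with a C followed by an uninterrupted run of pyrimidines, the 5′ terminal oligopyrimidine (TOP) tract. When the kinase complex mTORC1 is active such mRNAs are loaded with ribosomes, and when it is inactive LARP1 and the 4E-BP proteins hold them off ribosomes. Hypusinated eIF5A acts at another step, where it helps ribosomes form peptide bonds at sequences such as consecutive prolines and helps release the finished chain.

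The first bases of the mRNAs on which the results below turn are shown because they carry, or lack, the tract that defines the class. Each line gives the 10 bases before and the 20 bases from the RefSeq start on GRCh38.p14, and capitals mark the run of C and T that holds a C followed by at least 4 pyrimidines within 5 bases of that start. First stand the 5 genes that changed in polysomes, then RPSA, RPLP1 and 3 parent genes of paralogs (RPL22, RPL36A and RPS27), and last RPS27L, where no such run was found.
RPL4: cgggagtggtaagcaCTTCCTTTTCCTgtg
RPL3: gccgaccggCCTCTaccggcgggatttgat
RPL10A: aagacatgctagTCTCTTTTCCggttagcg
RPL22L1: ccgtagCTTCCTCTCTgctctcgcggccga
RPL36AL: TCTTCCCTTTCCTgttaggcgagagctgcg
RPSA: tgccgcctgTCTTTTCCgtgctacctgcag
RPLP1: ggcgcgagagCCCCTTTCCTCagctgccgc
RPL22: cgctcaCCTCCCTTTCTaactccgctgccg
RPL36A: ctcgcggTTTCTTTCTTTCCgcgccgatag
RPS27: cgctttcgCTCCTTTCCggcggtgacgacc
RPS27L: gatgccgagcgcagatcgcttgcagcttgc

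These windows lie at chr15:66504836-66504865 (RPL4, minus strand), chr22:39319604-39319633 (RPL3, minus), chr6:35468391-35468420 (RPL10A, plus), chr3:170870176-170870205 (RPL22L1, minus) and chr14:49620607-49620636 (RPL36AL, minus). The others lie at chr3:39406710-39406739 (RPSA, plus), chr15:69452808-69452837 (RPLP1, plus), chr1:6199576-6199605 (RPL22, minus), chrX:101391001-101391030 (RPL36A, plus), chr1:153990752-153990781 (RPS27, plus) and chr15:63157458-63157487 (RPS27L, minus). A RefSeq start was at hand for 67 of the 83 genes. At 47 of these 67 (70.1%) a C stood at the start itself with at least 4 pyrimidines after it, on the strand of the gene, against 797 of 11138 genes of the fraction table (7.16%) and 1404 of 27305 genes with a RefSeq start (5.14%). Within 5 bases of the start the motif was found for 55 of 67 (82.1%), against 29.3% of the fraction table's genes. Among the paralogs with an entry it stood at the start of 1 of 5 and near the start of 2 of 5, and among the other members in 46 and 53 of 62. A motif near a RefSeq start describes the annotated sequence only, since the transcription start used in DU145 cells was not measured.

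The files give comparisons and not the values of single libraries, so each response below is a log2 fold change of GC7 over vehicle with its SE, and whether libraries of the groups overlap cannot be given. For cytoplasm and polysomes the authors' values are shrunken towards 0, which affects uncertain genes most. Values called unshrunken were computed back from them with their SE. Which treatment is the numerator is not stated in the sources used here. The direction was read from the authors' category names for the fractions, and the whole-cell sign was reversed to match, so every direction below rests on that reading. Members were deeply covered, with mean normalized counts in the authors' deposited table of at least 1252 in cytoplasm (RPL39L) and 2177 in polysomes (RPS27L), where the median gene had 400.5 and 572.1. Together the 83 genes made up 16.9% of all mean normalized counts in cytoplasm and 14.4% in polysomes. The table also holds 63 rows named as pseudogenes of members, which took 0.126% and 0.202%. How reads shared between a gene and such copies were divided is not given in the sources used here, and in the whole-cell table this also touches readthrough names such as RPL17-C18orf32, RPS10-NUDT3 and RPL36A-HNRNPH2.

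In heavy polysomes, 4 ribosomal protein mRNAs rose with GC7 and 1 fell, all 5 of the large subunit. RPL4, RPL3, RPL10A and the paralog RPL22L1 were higher and the paralog RPL36AL was lower, each by less than 0.6 on the log2 scale. By the adjusted p in the authors' deposited table, with 0.05 as the threshold, 5 of 83 members (6.02%) passed, against 11.1% of all genes. Counted by direction, 4.82% of members were higher against 5.61% of all genes, and 1.20% were lower against 5.48%. At an unadjusted p under 0.05 the count was 7 (8.43%), against 23.3% of all genes.

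**Figure D1:**
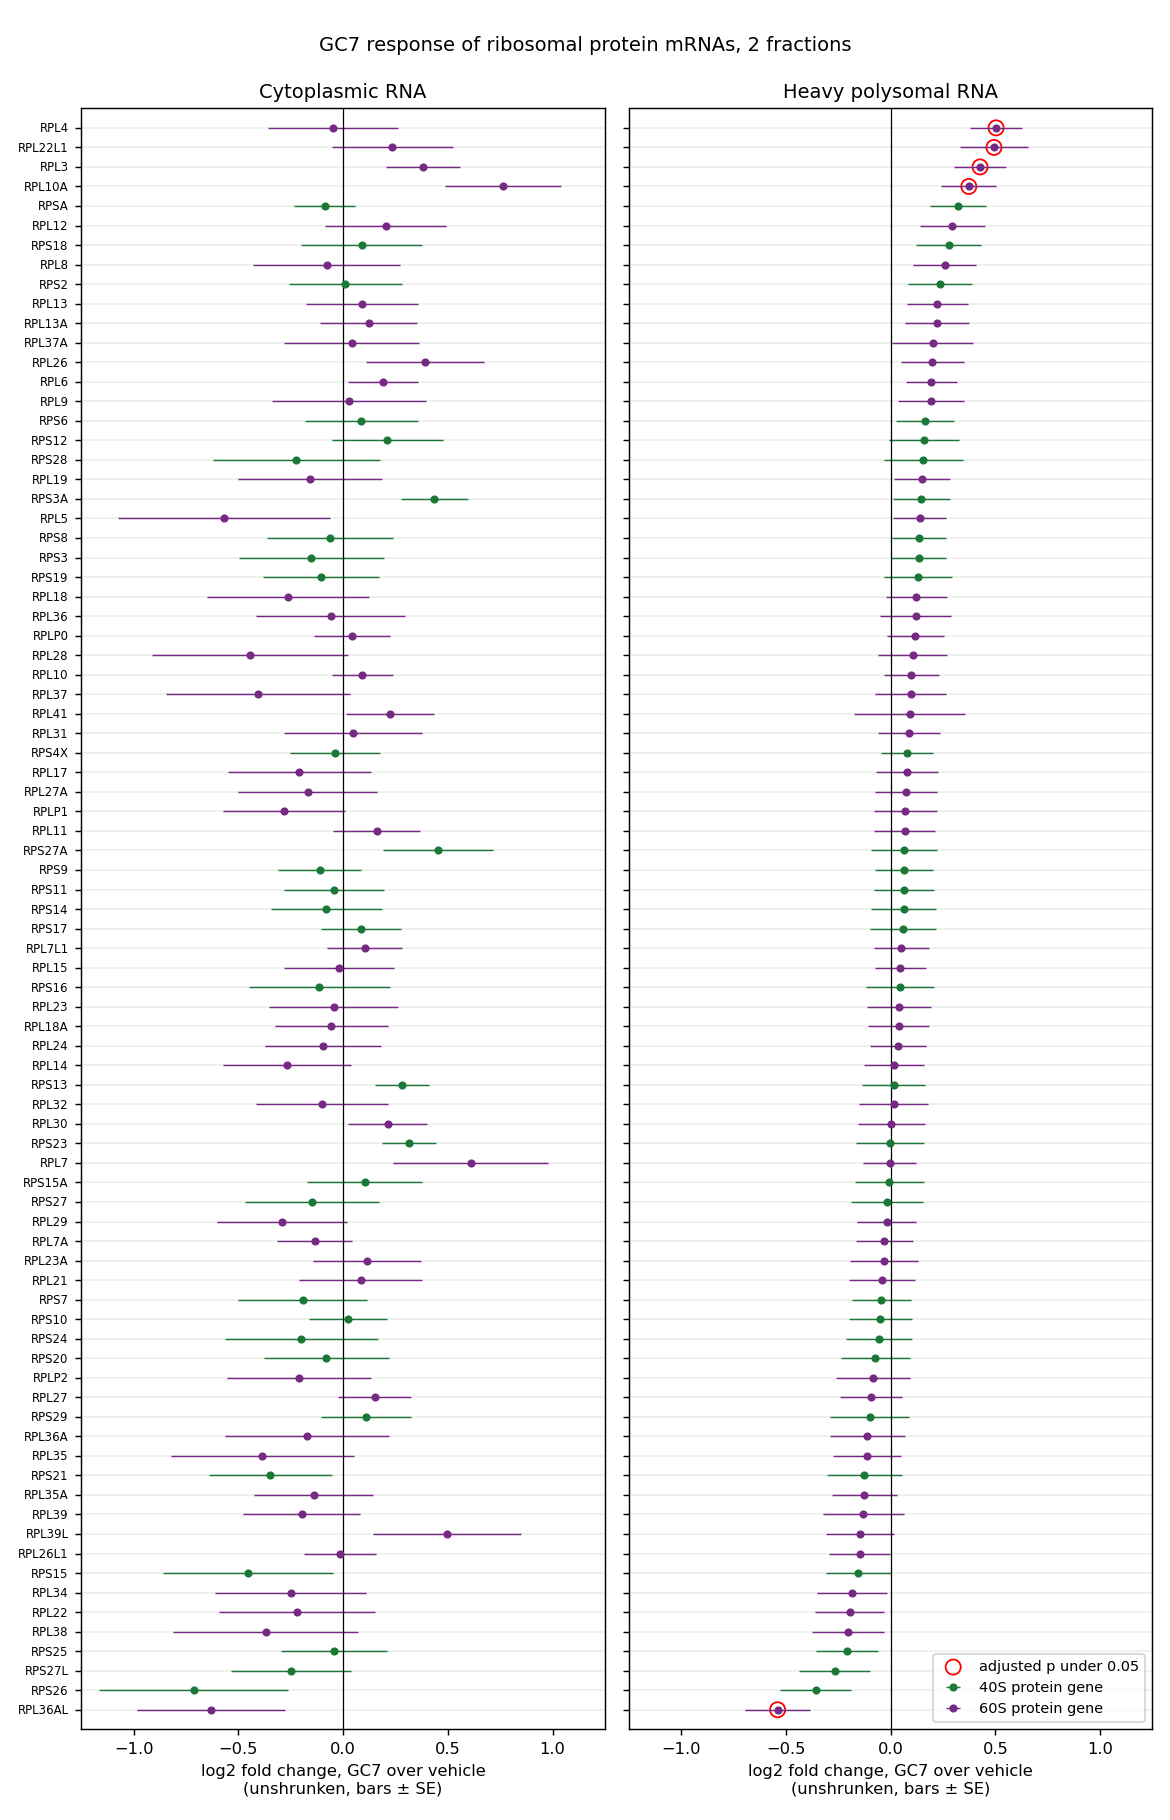
Unshrunken log2 fold change of GC7 over vehicle for 82 of the 83 genes in cytoplasm (left) and heavy polysomes (right), ordered by the polysomal value, with bars of ± 1 SE, 40S genes in green and 60S genes in purple, and red circles for an adjusted p under 0.05. The polysomal values lie between -0.54 and 0.50 with 5 circles, while the cytoplasmic values spread from -0.71 to 0.76 with longer bars and no circle.

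RPL4 (chromosome 15, 66498015 to 66524532 on GRCh38) places a long loop in the wall of the tunnel through which the new chain leaves the ribosome. Its mean normalized count in the authors' deposited table was 121602 in cytoplasm and 91312 in polysomes. Its polysomal log2 fold change in the authors' deposited table was 0.46 (SE 0.12, adjusted p = 0.00141), or 0.50 ± 0.12 unshrunken. In cytoplasm the unshrunken value was -0.05 ± 0.31, so the polysomal value stood clear of 0 and the cytoplasmic value did not.

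RPL3 (chromosome 22, 39312882 to 39320389) reaches towards the peptidyl transferase centre. Its polysomal log2 fold change in the authors' deposited table was 0.38 (SE 0.13, adjusted p = 0.00966). The unshrunken values were 0.43 ± 0.13 in polysomes and 0.38 ± 0.18 in cytoplasm, where the adjusted p in the authors' deposited table was 0.268. RPL3 thus had nearly the same value in both fractions, with the smaller SE in polysomes.

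RPL10A (chromosome 6, 35468401 to 35470785) forms the L1 stalk, the mobile arm beside the exit site of the tRNA. Its polysomal log2 fold change in the authors' deposited table was 0.32 (SE 0.13, adjusted p = 0.0428). Unshrunken it was 0.37 ± 0.13 in polysomes and 0.76 ± 0.28 in cytoplasm, the highest cytoplasmic value of the 83. In cytoplasm the adjusted p in the authors' deposited table was 0.0954, the smallest of any member there and above the threshold.

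RPL22L1 (chromosome 3, 170864875 to 170870208) can take the place of RPL22 in the ribosome. Its polysomal log2 fold change in the authors' deposited table was 0.41 (SE 0.17, adjusted p = 0.0302), or 0.49 ± 0.16 unshrunken. The parent gene RPL22 stood at -0.19 ± 0.16 in polysomes, and the difference within the pair was not tested. In cytoplasm the unshrunken values were 0.24 ± 0.29 for RPL22L1 and -0.22 ± 0.37 for RPL22, each within about 1 SE of 0.

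RPL36AL (chromosome 14, 49618530 to 49620626) encodes a near copy of RPL36A, a protein at the exit site of the tRNA. Its polysomal log2 fold change in the authors' deposited table was -0.46 (SE 0.16, adjusted p = 0.0101), or -0.54 ± 0.16 unshrunken. RPL36A stood at -0.11 ± 0.18 in polysomes. In cytoplasm RPL36AL was at -0.63 ± 0.35 and RPL36A at -0.17 ± 0.39, so the paralog was the lower member of the pair in both fractions. The difference between a paralog and its parent was not tested.

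RPSA and RPS26, both of the small subunit, had an unadjusted p under 0.05 in polysomes but did not pass after adjustment. RPSA, a protein on the outer face of the 40S subunit that is also known as a laminin receptor, had a polysomal value of 0.32 ± 0.13 unshrunken (p = 0.0167 and adjusted p = 0.110 in the authors' deposited table). RPS26, which lines the channel where the mRNA leaves the ribosome, had -0.36 ± 0.17 (p = 0.0324 and adjusted p = 0.169 in the authors' deposited table). The next highest polysomal values were those of RPL12 (0.29 ± 0.15), RPS18 (0.28 ± 0.15) and RPL8 (0.26 ± 0.15). The next lowest were those of RPS27L (-0.27 ± 0.17), RPS25 (-0.21 ± 0.15), RPL38 (-0.20 ± 0.17), RPL22 (-0.19 ± 0.16), RPL34 (-0.18 ± 0.17) and RPS15 (-0.15 ± 0.16). None of these passed.

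Most of the 83 mRNAs lay close to 0 in polysomes. The median unshrunken value was 0.06, with the middle of the list running from -0.05 to 0.14 between the quartiles. Over all genes the median was -0.01 and the quartiles were -0.22 and 0.22, so the ribosomal protein mRNAs were gathered in a narrower band. The median SE was 0.153 for members and 0.190 for all genes. Of the 83, 53 were above 0 and 30 below.

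Grouped by place in the ribosome, most groups had a polysomal median slightly above 0, and no difference between groups was tested. The 32 small-subunit genes had a median of 0.06 with 0 passing the test and 2 at an unadjusted p under 0.05, and the 51 large-subunit genes had a median of 0.07 with 5 passing. Of all genes, 11.1% passed in polysomes and 23.3% had an unadjusted p under 0.05 there, while 4.24% passed in cytoplasm. Of the 4 genes of the P stalk, which recruits the elongation factors, none passed in either fraction, and their polysomal values were 0.29 ± 0.15 for RPL12, 0.12 ± 0.14 for RPLP0, 0.07 ± 0.15 for RPLP1 and -0.08 ± 0.18 for RPLP2. RPL5 and RPL11, which bind the 5S ribosomal RNA and, off the ribosome, MDM2, stood at 0.14 ± 0.13 and 0.07 ± 0.14. The 7 genes around the mouth of the exit tunnel had a median of 0.08 and the 4 genes at the decoding centre and mRNA channel (RPS2, RPS3, RPS15 and RPS23) a median of 0.07, with 0 passing in each. Among the 3 genes of the L1 stalk and exit site, RPL10A rose, RPL36AL fell and RPL36A did not pass, and their median was -0.11.

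Of the ribosomal proteins outside the name rule, RACK1 rose in polysomes, with 0.46 ± 0.14 unshrunken (adjusted p = 0.0200 in the authors' deposited table). FAU stood at 0.00 ± 0.17 and did not pass.

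The polysomal response of the members ran with the length of their coding sequence. Coding sequences, taken from GENCODE 44 with the stop codon, had a median of 456 nt among the members, from 78 nt (RPL41) to 1284 nt (RPL4), against 1401 nt over all genes. The 11 members of up to 300 nt had a median polysomal value of -0.10, the 30 members of 301 to 450 nt -0.00 and the 19 members of 451 to 600 nt 0.06. The 20 members of 601 to 900 nt had a median of 0.14 with 18 above 0, and the 3 longest (RPLP0, RPL3 and RPL4) a median of 0.43.

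All genes of the same lengths ran in the same direction but lower. Their polysomal medians were -0.28 for up to 300 nt (270 genes), -0.22 for 301 to 450 nt (598 genes), -0.14 for 451 to 600 nt (777 genes), -0.08 for 601 to 900 nt (1789 genes) and -0.01 for 901 to 1284 nt (2391 genes). In each of the 5 length ranges the members' median was therefore above that of all genes. In cytoplasm the medians of members and all genes nearly coincided, at -0.20 and -0.19 for up to 300 nt, -0.10 and -0.11 for 301 to 450 nt, -0.04 and -0.04 for 451 to 600 nt, 0.05 and -0.03 for 601 to 900 nt, and 0.04 and -0.01 for 901 to 1284 nt. Across the 83 genes the polysomal value and coding length had r = 0.565 and rho = 0.544. Over 12882 genes with a coding length these were 0.060 and 0.161. Coding lengths reached 43524 nt over all genes and 1284 nt among the members. The coefficients thus cover unlike ranges of length and do not show that the relation was stronger among the members. The points of such correlations come from the same libraries and are not independent replicates.

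**Figure D2:**
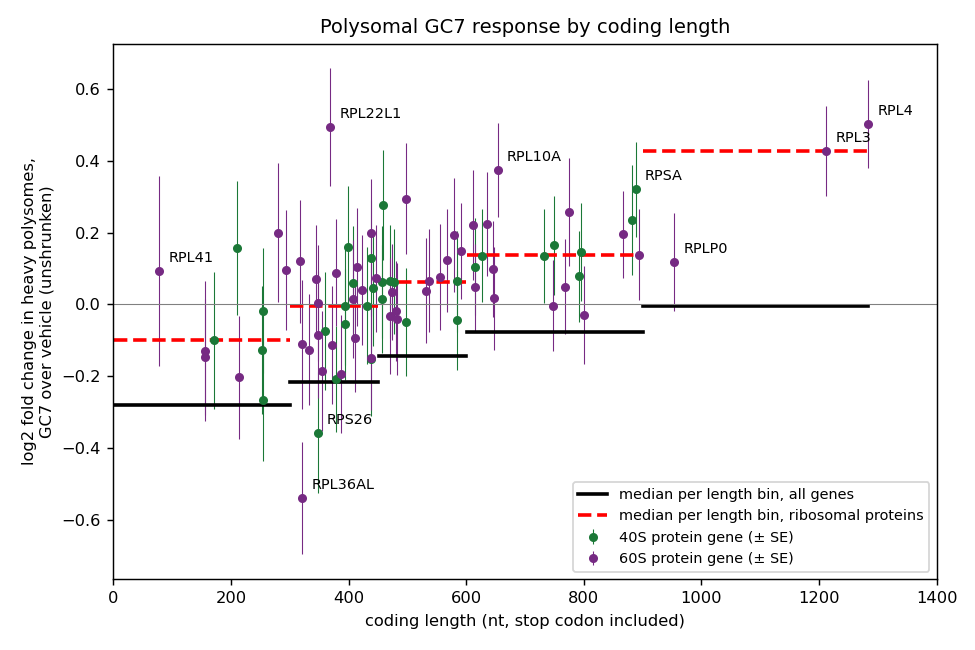
Unshrunken polysomal log2 fold change (y axis, ± 1 SE) against coding length in nt (x axis) for the 83 genes, with black lines for the median of all genes and dashed red lines for the median of ribosomal protein genes in each length range. Both sets of lines climb to the right, the red from -0.10 to 0.43 and the black from -0.28 to -0.01.

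Runs of consecutive proline codons, a textbook substrate of eIF5A, were rare in this class. A run of at least 3 was present in 2 of the 83 coding sequences (2.41%), those of RPL13A and RPS26. Among all genes with a coding sequence 3383 of 12901 had such a run (26.2%), and among the 5825 genes no longer than RPL4 863 had (14.8%). The polysomal values of the 2 members were 0.22 ± 0.15 for RPL13A and -0.36 ± 0.17 for RPS26, on opposite sides of 0.

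In cytoplasm none of the 83 mRNAs passed by the adjusted p that the authors' deposited table gives, where 4.24% of all genes did. At an unadjusted p under 0.05 there were 5 (6.02%), against 15.4% of all genes, and all 5 were higher, against 7.31% of all genes that were higher. They were RPL10A, RPS3A (0.44 ± 0.16 unshrunken), RPS23 (0.31 ± 0.13), RPS13 (0.28 ± 0.13) and RPL3. RPS3A sits on the platform of the 40S subunit and RPS23 at the decoding centre. The median unshrunken value of the members was -0.05 and that of all genes -0.01. The members had a median SE of 0.287, well above that in polysomes, so a change of the size seen for RPL4 in polysomes would lie within 2 SE of 0 for most of them in cytoplasm.

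Other high cytoplasmic values were 0.61 ± 0.37 for RPL7, 0.49 ± 0.35 for RPL39L, 0.45 ± 0.26 for RPS27A and 0.39 ± 0.28 for RPL26. The lowest were -0.71 ± 0.45 for RPS26, -0.63 ± 0.35 for RPL36AL, -0.57 ± 0.51 for RPL5, -0.45 ± 0.41 for RPS15 and -0.44 ± 0.47 for RPL28, followed by -0.41 ± 0.44 for RPL37, -0.39 ± 0.44 for RPL35 and -0.37 ± 0.44 for RPL38. None of these 12 passed the test. Of all 83 genes, 48 were below 0 and 35 above.

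Signs in the fractions combined in all 4 ways. There were 26 genes above 0 in both fractions, 21 below 0 in both, 27 below 0 in cytoplasm and above 0 in polysomes, and 9 the other way. RPL4, RPL5, RPL28, RPL37 and RPSA were among the 27, and RPL7, RPL39L and RPS23 among the 9.

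The question of ribosome loading was put to each gene as the difference between its polysomal and its cytoplasmic response, which stands in for a change in translational efficiency. No member passed an adjusted p under 0.05 in this normal test with Benjamini-Hochberg adjustment, nor did any of the 15669 genes tested (0%). This takes the errors of the fractions as independent, and with errors correlated at 0.5, 20 genes passed, 0 of them members. At an unadjusted p under 0.05 there was 1 member, RPSA (1.20%), against 335 genes in all (2.14%). Its difference was 0.41, with a 95% interval of 0.02 to 0.80 (p = 0.0391, adjusted p = 0.9996, from the values the authors deposited). The median difference was 0.10 for members and 0.01 for all genes, with 59 of 83 members above 0.

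The intervals around single genes were wide. The highest difference was that of RPL5, at 0.71 with a 95% interval of -0.32 to 1.73. RPL4 followed with 0.55 (-0.10 to 1.20), RPL28 with 0.55 (-0.42 to 1.52) and RPL37 with 0.50 (-0.42 to 1.42). The lowest were RPL39L with -0.64 (-1.40 to 0.12), RPL7 with -0.61 (-1.38 to 0.15) and RPL10A with -0.39 (-0.99 to 0.21). These 7 intervals include 0. The median SE of the difference was 0.328. RACK1, outside the rule, had a difference of 0.63 (unadjusted p = 0.0385, from the values the authors deposited).

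**Figure D3:**
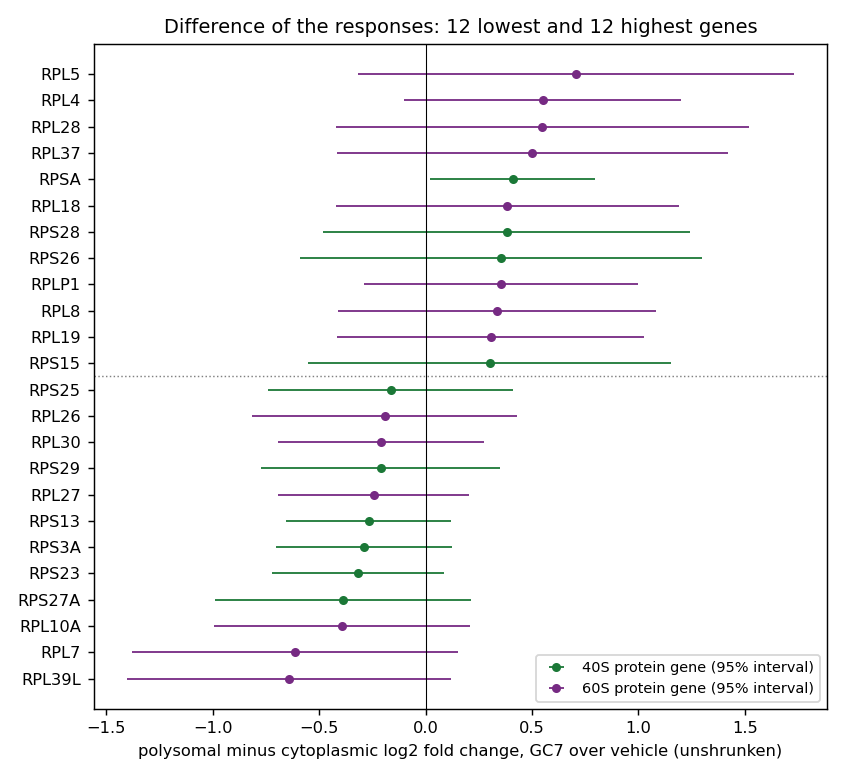
Polysomal minus cytoplasmic log2 fold change (x axis, unshrunken, GC7 over vehicle) for the 12 highest and the 12 lowest of 82 of the 83 genes, with 95% intervals. The interval of RPSA, 0.02 to 0.80, is the only interval shown that leaves out 0.

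Apart from the treatment, the mRNAs of ribosomal proteins were less abundant in heavy polysomes than in cytoplasm relative to other genes. The measure is the log2 ratio of a gene's share of the summed mean normalized counts in polysomes to its share in cytoplasm, with both treatments pooled by the authors' means, so it has no spread over libraries and was not tested. Its median was -0.25 for the members and 0.35 for all genes. Below 0 were 63 of the 83 members (75.9%), against 3976 of 15747 genes (25.2%). Genes with coding sequences no longer than RPL4 had a median of 0.43. By coding length, the medians of members and of all genes were -0.28 and 0.21 for up to 300 nt, -0.35 and 0.28 for 301 to 450 nt, -0.17 and 0.41 for 451 to 600 nt, -0.07 and 0.44 for 601 to 900 nt and -0.08 and 0.46 for 901 to 1284 nt. The members were thus below all genes in each length range.

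The lowest ratio was that of RPLP1, an acidic protein of the P stalk, at -1.03, with a mean normalized count in the authors' deposited table of 102587 in cytoplasm and 55758 in polysomes. RPL37 followed at -0.96, with 205108 and 117294 in the authors' deposited table. RPSA (-0.63), RPL38 (-0.63) and RPL28 (-0.62) came next. All 4 genes of the P stalk were below 0, and RPLP1 lay far from RPLP0 (-0.08) and its partner RPLP2 (-0.10).

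At the other end stood RPL39L at 1.04, or 2.05 times its cytoplasmic share, with a mean normalized count in the authors' deposited table of 1252 in cytoplasm and 2857 in polysomes. Its parent gene RPL39 had -0.25. RPL10A was at 0.92 (1.89 times), RPS27A at 0.64 and RPL7L1 at 0.59, while RPL7, the parent of RPL7L1, was at 0.54. Both RPL39 genes encode a short protein of the exit tunnel, and at 156 nt their coding sequences have the same length.

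The ratio ran with the cytoplasmic response across the 83 genes (r = 0.710, rho = 0.655). The high end held RPL10A, RPL39L, RPS27A and RPL7, and the low end RPL37, RPL38 and RPL28. Not every gene at the ends followed this. RPL7L1, with a ratio of 0.59, had a cytoplasmic value of 0.10 ± 0.18, and RPSA, with a ratio of -0.63, had -0.09 ± 0.15. Both measures use the cytoplasmic libraries, and the SE of the cytoplasmic response was larger where the ratio was low (rho = -0.602). Over 12882 genes the same pair of measures had r = 0.337 and rho = 0.300. With the polysomal response the ratio had r = 0.056 and rho = 0.011 across the members.

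**Figure D4:**
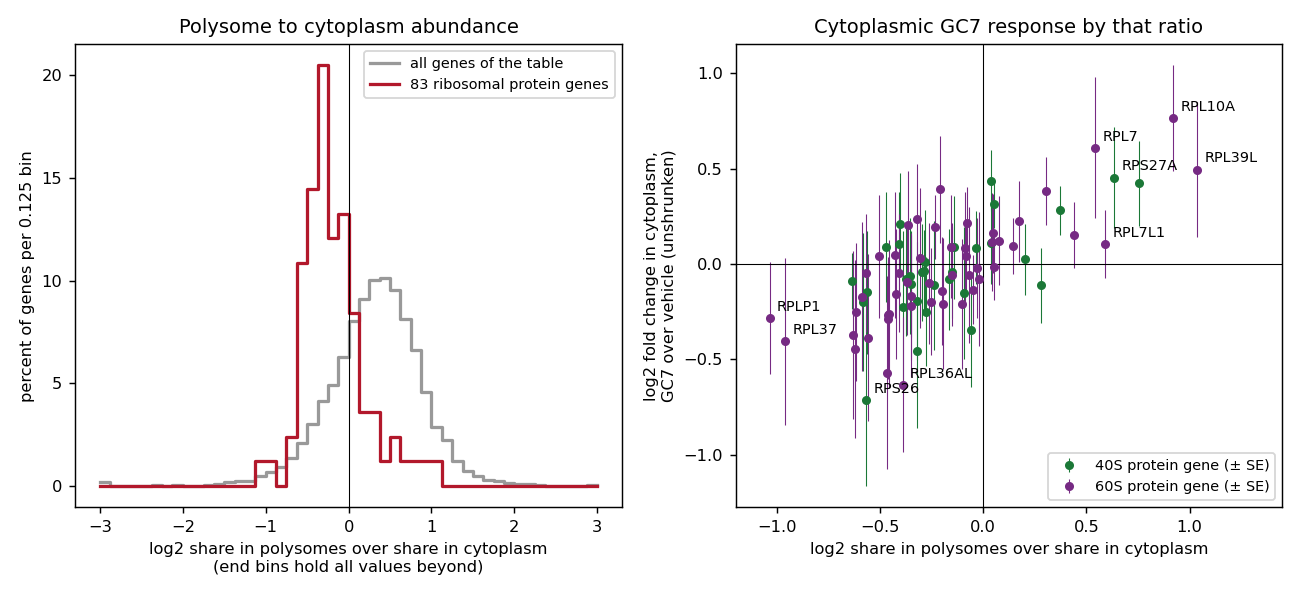
Left, the distribution of the log2 ratio of polysomal to cytoplasmic share for the 83 genes (red) and all 15747 genes (grey), as the percent of genes per bin. Right, the unshrunken cytoplasmic log2 fold change with ± 1 SE (y axis) against that ratio (x axis), where the red peak lies left of the grey and the points climb from RPLP1 and RPL37 at the lower left to RPL10A and RPL39L at the upper right.

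Members with and without the tract at the RefSeq start had similar medians. The 47 genes with it had medians of 0.06 in polysomes, -0.09 in cytoplasm and -0.25 for the ratio of shares, and the 20 genes with a RefSeq start but no tract there had 0.05, -0.04 and -0.27. Of the 5 genes that passed in polysomes, 1 (RPL22L1) had the tract at the start itself and the other 4 had it nearby, as the sequences above show. That is 1 of the 47 and 4 of the 20, with 0 of the 16 without a RefSeq entry, where 11.1% of all genes passed. Within 5 bases of the start 55 of 67 had the motif. The 20 therefore include genes with a tract nearby, so this split cannot show whether the tract matters, and no difference was tested.

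In whole cells no member had a p under 0.05 before adjustment in the authors' deposited table, against 2.99% of all 44682 genes and 3.11% of the 14099 genes in both tables. No gene of the table passed after Benjamini-Hochberg adjustment. The smallest p of a member in the authors' deposited table was 0.119, for RPL22L1. The deposited whole-cell values carry no SE. With the sign reversed, 66 of the 83 members were above 0 and 17 below, with a median of 0.24 that becomes -0.24 if the sign is left as deposited. Above 0 were 79.5% of the members and 46.9% of the genes in both tables, whose median was -0.04. Genes without reads share the value -0.07, so 0 is not quite the neutral point of the table.

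**Figure D5:**
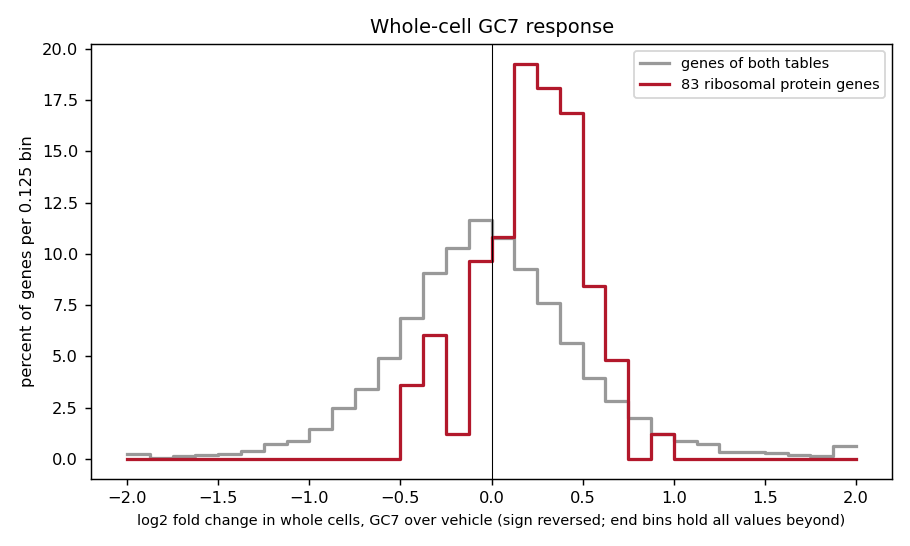
Distribution of the whole-cell log2 fold change, GC7 over vehicle with the sign reversed, for the 83 genes (red) and the genes of both tables (grey), as the percent of genes per bin. The red distribution is centred at 0.24 and the grey at -0.04, and no single member passed an unadjusted p under 0.05.

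The highest whole-cell log2 fold changes in the authors' deposited table, after reversal, were 0.91 for RPL22L1, 0.71 for RPS18, 0.65 for RPL27A, 0.63 for RPL10 and 0.63 for RPLP0, followed by RPS16 (0.59), RPS23 (0.58) and RPL30 (0.57). The lowest in the authors' deposited table were -0.47 for RPS27A, -0.40 for RPL36AL, -0.38 for RPL23A, -0.36 for RPS26 and -0.33 for RPS20, then RPL5 (-0.32), RPS24 (-0.32) and RPS25 (-0.30). The 40S genes had a median of 0.25 (26 of 32 above 0) and the 60S genes 0.24 (40 of 51 above 0). All 4 genes of the P stalk and all 4 of the decoding centre and mRNA channel were above 0, with medians of 0.47 and 0.43. Around the mouth of the exit tunnel 4 of 7 genes were above 0 (median 0.02). At the L1 stalk and exit site 2 of 3 were (0.11), and of RPL5 and RPL11 1 of 2 (-0.04). Among all members 79.5% were above 0, and no difference between groups was tested. The whole-cell table lists some genes more than once under numbered names, and the 9 further rows of RPS9 ran from -0.55 to 1.68 in the authors' deposited table after reversal.

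RPL22L1 was the highest member in whole cells and next to the highest in polysomes, and RPL36AL the lowest in polysomes and next to the lowest in whole cells. The whole-cell sign had been reversed to match the fractions, so agreement of direction between whole cells and fractions was partly set by that choice. In the fractions and in whole cells, 20 genes were above 0 throughout, among them RPL3, RPL10A and RPL22L1. There were 8 genes below 0 throughout, namely RPL22, RPL35, RPL36AL, RPL38, RPS20, RPS24, RPS25 and RPS26. Of these 28 genes, 4 passed a test, all in polysomes only, where 11.1% of all genes passed. The 28 were picked by signs that include the polysomal one, and the share of all genes with the same sign throughout is not given here. RPL4 was above 0 in whole cells (0.38 in the authors' deposited table after reversal, p = 0.483) and in polysomes but not in cytoplasm.

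The remaining paralog pairs differed less in polysomes. RPS27L stood at -0.27 ± 0.17 and RPS27 at -0.02 ± 0.17. RPL39L and RPL39 were at -0.15 ± 0.16 and -0.13 ± 0.20, RPL26L1 and RPL26 at -0.15 ± 0.14 and 0.20 ± 0.15, and RPL7L1 and RPL7 at 0.05 ± 0.13 and -0.00 ± 0.13. None of these 8 genes passed.

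Other mRNAs known to begin with a TOP tract, those of elongation factors, subunits of eIF3 and the poly(A)-binding protein among them, were listed for all 20 genes searched. In polysomes 4 rose and none fell in the authors' deposited table, where 5.61% of all genes rose and 5.48% fell. PABPC1, the cytoplasmic poly(A)-binding protein, had 0.62 ± 0.13 unshrunken (adjusted p = 6.48e-05 in the authors' deposited table). EEF2, which moves the ribosome along the mRNA, had 0.57 ± 0.18 (adjusted p = 0.0203 in the authors' deposited table). EEF1A1, which brings the aminoacyl-tRNA, had 0.51 ± 0.13 (adjusted p = 0.00377 in the authors' deposited table), and EIF3L had 0.43 ± 0.14 (adjusted p = 0.0202 in the authors' deposited table).

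Of the 20, 17 were above 0 in polysomes with a median of 0.24, where the ribosomal protein mRNAs had 0.06 and all genes -0.01. In cytoplasm, where 4.24% of all genes passed in either direction, EIF3H alone rose (0.54 ± 0.16, adjusted p = 0.0286 in the authors' deposited table), with a median of 0.04 for the 20. None passed for the difference between the fractions. Their coding sequences were longer, with a median of 1269 nt, and their ratio of polysomal to cytoplasmic share had a median of 0.04. The tract stood at the RefSeq start of 12 of the 14 with an entry.

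Among 19 regulators of mTORC1 and of TOP mRNAs, 3 rose and 3 fell in polysomes, with a median of -0.11 (all genes, 5.61% higher and 5.48% lower). DDIT4 and SESN2, inhibitors of mTORC1 that are induced by stress, had 1.66 ± 0.17 (adjusted p = 3.88e-20 in the authors' deposited table) and 1.05 ± 0.17 (adjusted p = 7.37e-08 in the authors' deposited table). EIF4EBP1, a repressor of cap-dependent initiation, had 0.47 ± 0.16 (adjusted p = 0.0331 in the authors' deposited table).

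The related EIF4EBP2 fell by 0.59 with an SE of 0.15 (adjusted p = 0.00250 in the authors' deposited table), and TSC1, a brake on mTORC1, fell by 0.54 with an SE of 0.15 (adjusted p = 0.00508 in the authors' deposited table). EIF4E, the cap-binding protein, fell by 0.36 with an SE of 0.13 (adjusted p = 0.0454 in the authors' deposited table). In cytoplasm DDIT4 (1.94 ± 0.31) and SESN2 (0.83 ± 0.16) rose and none fell, 2 of 19 against 4.24% of all genes in either direction. In whole cells the same 2 genes and EIF4EBP1 had a p under 0.05 before adjustment in the authors' deposited table, at 2.53, 2.53 and 1.34 after reversal, against 2.99% of all genes with such a p. LARP1, which binds the TOP tract itself, stood at -0.08 ± 0.17 in polysomes. These are mRNA levels, and the activity of mTORC1 was not measured here.

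Of 15 chaperones and import factors that serve ribosomal proteins, TSR2, the escort of RPS26, fell in polysomes, where 5.48% of all genes did (-0.44 ± 0.14, adjusted p = 0.0204 in the authors' deposited table). The other 14 did not pass in polysomes, and none of the 15 passed in cytoplasm. Their polysomal median was 0.07.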

How the data were processed

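DU145 RNA from whole cells, cytoplasm and heavy polysomes was compared between GC7 and vehicle, with 3 libraries in each of 6 groups taken from the labels. The build GRCh38 and the tools Salmon 1.4.0 and STAR 2.7.8a are named per the submitters' processing notes, in roles not given in the sources used here. Per the file headers, the authors' deposited whole-cell table holds a log2 fold change (base read from the values) and an unadjusted p-value per gene. Per the file headers, the authors' fraction table holds for each fraction a mean normalized count over both treatments, p-values before and after adjustment, a log2 fold change and its SE, and a category. The authors' test and the depth of single libraries are not given in the sources used here, and such tables allow no test on read counts, which had been planned.

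Genes of the category "UP" were taken to be higher with GC7. The sign in whole cells was reversed because the deposited values ran against the unshrunken values of the fractions (Spearman rho -0.269 with cytoplasm and -0.375 with polysomes, 14099 genes). Unshrunken fold changes were computed by undoing a Cauchy prior (on natural logs, scale 0.195 in cytoplasm and 0.205 in polysomes), fitted to match the deposited p-values, and the z so recovered lay within 0.1 of the deposited value for 97.4% and 99.5% of genes. The 78 genes off by over 0.5 were left out of the difference test (15669 kept, all 83 members among them). That test divides polysomal minus cytoplasmic unshrunken log2 fold change by the root of the summed squared SE, two-sided and normal, with errors taken as independent and Benjamini-Hochberg adjustment over all genes. It was tested on simulated data.

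The members and gene lists were chosen with earlier results of these data known, and no list was tested as a set. Genes named with values were the 8 highest and 8 lowest members per comparison, all that passed, the 5 highest and 5 lowest by ratio of shares, and paralogs with their parents. Others are named for their place in a list or count. Sequences are from RefSeq on GRCh38.p14, and coordinates and coding lengths from GENCODE 44. Levels are given for coverage, cell type markers and shares of the counts, and are not otherwise compared between genes. Some genes that the rules would name are not reported here by name. Python 3.11.15 with numpy 2.4.6, pandas 2.3.3 and scipy 1.17.1 was used.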

Additional observations from a re-analysis of the deposited data

How the results depend on the processing

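The directions rest on the reading of the numerator, and with the whole-cell sign left as deposited the whole-cell median of the members is -0.24. The count of 0 in cytoplasm became 1 (RPL10A, higher) at an adjusted p under 0.1. The count of 5 in polysomes became 2 (RPL3 and RPL4) at an adjusted p under 0.01, 3 without the paralogs, and 0 by the authors' category, which also asks for a log2 fold change over 1 in size. The median log2 ratio of polysomal to cytoplasmic share was -0.43 with mitochondrially encoded genes left out of the sums (0.17 for all genes) and -0.60 after division by the median ratio (0 for all genes), so its distance from all genes was the same by construction while its place relative to 0 was not. The share of members with a pyrimidine tract was 82.1% within 5 bases of the start. The other 38 values for these results kept their direction and their side of the threshold, as did 20 adjusted p-values of the 5 genes that passed in polysomes. In the difference test, 0 of 15669 genes passed the adjustment with independent errors. With errors correlated at 0.5, 20 genes passed it, 0 of them members, and 4 members had an unadjusted p under 0.05. With deposited values 1 gene passed, also no member. No paired analysis was possible because the files hold comparisons and no per-library values, and for the same reason leaving out each replicate and a fit with a replicate block were not run. The depth per library is unknown here.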

Other observations

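RPL3L and RPL10L, paralogs that were in the whole-cell table but not in the fraction table, had log2 fold changes of 0.53 (p = 0.505) and -0.07 (p = 0.855) in the authors' deposited table after reversal. The second is the value shared by genes without reads. The 63 rows named as pseudogenes of members had a median unshrunken log2 fold change of 0.10 in cytoplasm, with 1 higher, and 0.09 in polysomes, with 3 higher and 0 lower in the authors' deposited table. Of all genes, 4.24% passed in cytoplasm in either direction, and in polysomes 5.61% were higher and 5.48% lower.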
